A study of Homo sapiens with 15 samples.

Results

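The 233 rows described here are the loci typed as lincRNA (189 rows) or processed_transcript (44 rows) in the authors' deposited table of 11230 rows. They were taken by these types alone, leaving out 2 rows, RP11-71N10.1 and AC116609.2. A lincRNA is a long RNA without an evident reading frame whose gene lies between coding genes. A processed transcript is a spliced, polyadenylated RNA of a gene for which no reading frame was annotated.

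The cells were HEK293FT, an easily transfected line that descends from human embryonic kidney cells. All 15 libraries came from cells given dCas9-VP64, a fusion of MS2 with p65 and HSF1, and 5 guide RNAs. These parts form a CRISPR activation system, which recruits transcription activators to the site that the guides bind. The control group received non-targeting guides. The groups trex0108, trex4039, trex5008 and trex8168 received guides placed 50 to 450 bp upstream of the start of a TrEx RNA, 1 of 4 long non-coding RNAs that are transiently expressed as cortical neurons form. Puromycin at 2 ug/mL was given at 24 hours to select transfected cells, and polyA RNA was taken at 48 hours. Each group had 3 libraries, labelled as biological triplicates. The groups are named by library title. The libraries titled trex8168 carry the target label TrEx5008, and those titled trex5008 the label TrEx8168, so these 2 names may be exchanged. All values below are from kidney-derived cells under plasmid transfection and drug selection, not from neurons.

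Each value is the authors' mean normalised count of a group, so no spread can be given and no overlap between libraries can be read. Depth is unknown. The mean is not divided by RNA length, so levels are compared between groups and not between loci. Of 6 HEK293 markers, 4 were listed, with group means from 365 to 450 for LHX1 and from 3590 to 5626 for NEFM. Of 9 markers of other cell types, only ACTA1 was listed, at 111 to 149. A row is in the table only if its adjusted p was under 0.1 in at least 1 comparison, so markers that are not listed were not analysed here.

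Long non-coding RNAs act in many ways. Some hold protein complexes in the nucleus, some are made only as the carrier of a microRNA or a small nucleolar RNA in an intron or exon, and for some the act of transcription affects a neighbouring gene. Many start beside a coding gene, on the opposite strand, from a shared promoter region. Their levels are often low and specific to a cell type.

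Several members are precursors of microRNAs, short RNAs that repress target mRNAs through their seed, bases 2 to 8. The mature sequences are shown from RefSeq (GRCh38.p14), 5′ to 3′, with the seed in capitals, because these loci moved in different directions. The libraries measured polyA RNA of the host locus, not the mature microRNA.
hsa-miR-125a-5p: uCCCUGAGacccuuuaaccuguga
hsa-miR-17-5p: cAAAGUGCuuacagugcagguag
hsa-miR-20a-5p: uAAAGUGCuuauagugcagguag
hsa-miR-210-3p: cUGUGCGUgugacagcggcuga
hsa-miR-24-3p: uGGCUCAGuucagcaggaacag
hsa-miR-940: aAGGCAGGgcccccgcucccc
hsa-miR-9-5p: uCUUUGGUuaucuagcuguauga
hsa-miR-29b-3p: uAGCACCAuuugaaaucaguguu
hsa-miR-29c-3p: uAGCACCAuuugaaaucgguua
The arms of miR-17 and miR-20a, both from MIR17HG, share the seed AAAGUGC. The arms of miR-29b and miR-29c, both from the locus listed as C1orf132 (now MIR29B2CHG), share AGCACCA. The other 5 seeds differ from these and from each other.

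The promoter windows of 3 members follow, each with 250 bases before and 50 after the RefSeq start (GRCh38.p14). They are shown because RAB30-AS1 and BAIAP2-AS1 lie within 300 bp of a coding gene that did not move with them, while MIR210HG fell together with its neighbour. Capitals mark the GC box GGGCGG, or its reverse complement, a site that Sp1-family factors can bind.
RAB30-AS1, chr11:83071816-83072115, plus strand: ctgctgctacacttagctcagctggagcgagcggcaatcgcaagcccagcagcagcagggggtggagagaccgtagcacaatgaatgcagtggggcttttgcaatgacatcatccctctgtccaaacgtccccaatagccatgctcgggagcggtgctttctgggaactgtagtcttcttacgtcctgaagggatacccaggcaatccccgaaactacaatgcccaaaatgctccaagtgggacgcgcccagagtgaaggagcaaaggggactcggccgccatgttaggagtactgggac
BAIAP2-AS1, chr17:81034670-81034969, minus strand: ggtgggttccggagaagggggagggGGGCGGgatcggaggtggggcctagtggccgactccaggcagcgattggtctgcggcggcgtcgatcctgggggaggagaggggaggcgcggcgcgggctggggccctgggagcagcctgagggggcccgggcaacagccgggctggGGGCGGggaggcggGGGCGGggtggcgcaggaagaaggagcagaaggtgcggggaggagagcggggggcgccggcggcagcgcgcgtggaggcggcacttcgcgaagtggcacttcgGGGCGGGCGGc
MIR210HG, chr11:568408-568707, minus strand: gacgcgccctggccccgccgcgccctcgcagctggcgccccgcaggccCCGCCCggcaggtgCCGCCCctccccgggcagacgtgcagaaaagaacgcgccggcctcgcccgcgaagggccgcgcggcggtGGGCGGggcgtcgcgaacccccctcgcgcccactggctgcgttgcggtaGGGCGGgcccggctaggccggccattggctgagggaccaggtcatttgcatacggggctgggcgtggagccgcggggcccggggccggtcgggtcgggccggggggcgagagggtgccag
The GC box was found 0 times in the RAB30-AS1 window, 5 times in that of BAIAP2-AS1 and 4 times in that of MIR210HG, overlapping matches and both strands counted. Of all 35116 promoter windows in the RefSeq table, 45.0% held at least 1. CCAAT occurred 1 time in each of the 3 windows, on either strand, against at least 1 in 34.6% of all windows, and TATAAA in none, against 11.5%. GC content was 56.7% in the RAB30-AS1 window and 77.3% in that of BAIAP2-AS1, beside a median of 58.7% over all windows. A match is a run of letters and not a measured binding site, and an absent match says nothing of the factor.

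The labels were checked against position and against present names. By the coordinates in the table (hg19), 75 members overlapped at least 1 listed protein-coding row and 158 overlapped none, so 32.2% of the members were not apart from a coding gene. The table gives no strand and no exons, so whether an overlap lies in an intron, an exon or on the opposite strand is not known here. Of 73 members matched to RefSeq by symbol or alias, 47 are lncRNA, 5 transcribed pseudogenes, 2 microRNAs, 1 a small nucleolar RNA, 1 a small nuclear RNA, and 17 are now typed as protein-coding. Among the 10 members with the largest mean, 5 are of that last kind. They are UHRF1 (a reader of hemimethylated DNA that recruits DNMT1), SEC22B (a SNARE protein of vesicle traffic), CASP8AP2 (a regulator of histone gene transcription), JRK and ZNF518A.

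In trex0108, 22 of 233 members were higher and 1 was lower at an authors' adjusted p under 0.05, or 9.87% called, beside 5.89% of all rows. That is 9.44% higher and 0.429% lower, beside 5.65% higher and 0.249% lower over the table. The median deposited log2 fold change of the members was -0.03, against 0.02 over all rows. Among rows with a mean of at least 50, 6.67% of the 180 members and 4.81% of the 9795 rows were higher. Among rows with a mean under 50, 18.9% of the 53 members and 11.4% of the 1435 rows were higher. Of the 22 risen members, 10 had a control mean under 20. No listed coding row was overlapped by 19 of the 22, nor by 158 of all 233 members (67.8%). By the log2 ratio of means with a pseudocount of 1, 15 of the 22 at least doubled. By the deposited log2 fold change, 5 of the 22 reached 1, and the median of the 22 was 0.58. The same was not counted for the risen rows of the whole table.

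In trex4039, 47 members were higher and 97 lower of the 228 with an adjusted p. The lower share was 42.5% beside 33.7% of all rows, and the higher share 20.6% beside 37.1%. In all rows, rises were more numerous than falls. The median was -0.20 for the members and 0.03 for all rows, and for rows with a mean of at least 50 the medians were -0.23 and 0.08. Called falls had a median of 67.6% of the control mean. Below a mean of 50 the order of the medians was reversed, at -0.04 for the members and -0.28 for all such rows. There 20.8% of the members tested were lower and 14.6% higher, beside 44.3% and 9.07% of such rows.

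In trex5008, 26 members were higher and 58 lower of 209 tested. The lower share was 27.8% beside 24.3% of all rows, and the higher share 12.4% beside 29.8%. The median was -0.11, against 0.02 over all rows. In trex8168, 9 were higher and 27 lower of 213 tested, or 4.23% and 12.7%, beside 14.6% and 6.45% of all rows. In both directions together that is 16.9% beside 21.0%. The median there was -0.08 against 0.04. With a mean under 50, 10.3% of members tested were lower in trex5008 and 0% higher, beside 14.1% and 3.90% of such rows. In trex8168 6.06% of such members were lower and 3.03% higher, beside 14.6% and 2.49%. No adjusted p was given for 5 members in trex4039, 24 in trex5008 and 20 in trex8168. The 4 comparisons share their control libraries, so they are not independent of each other.

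**Figure D1:**
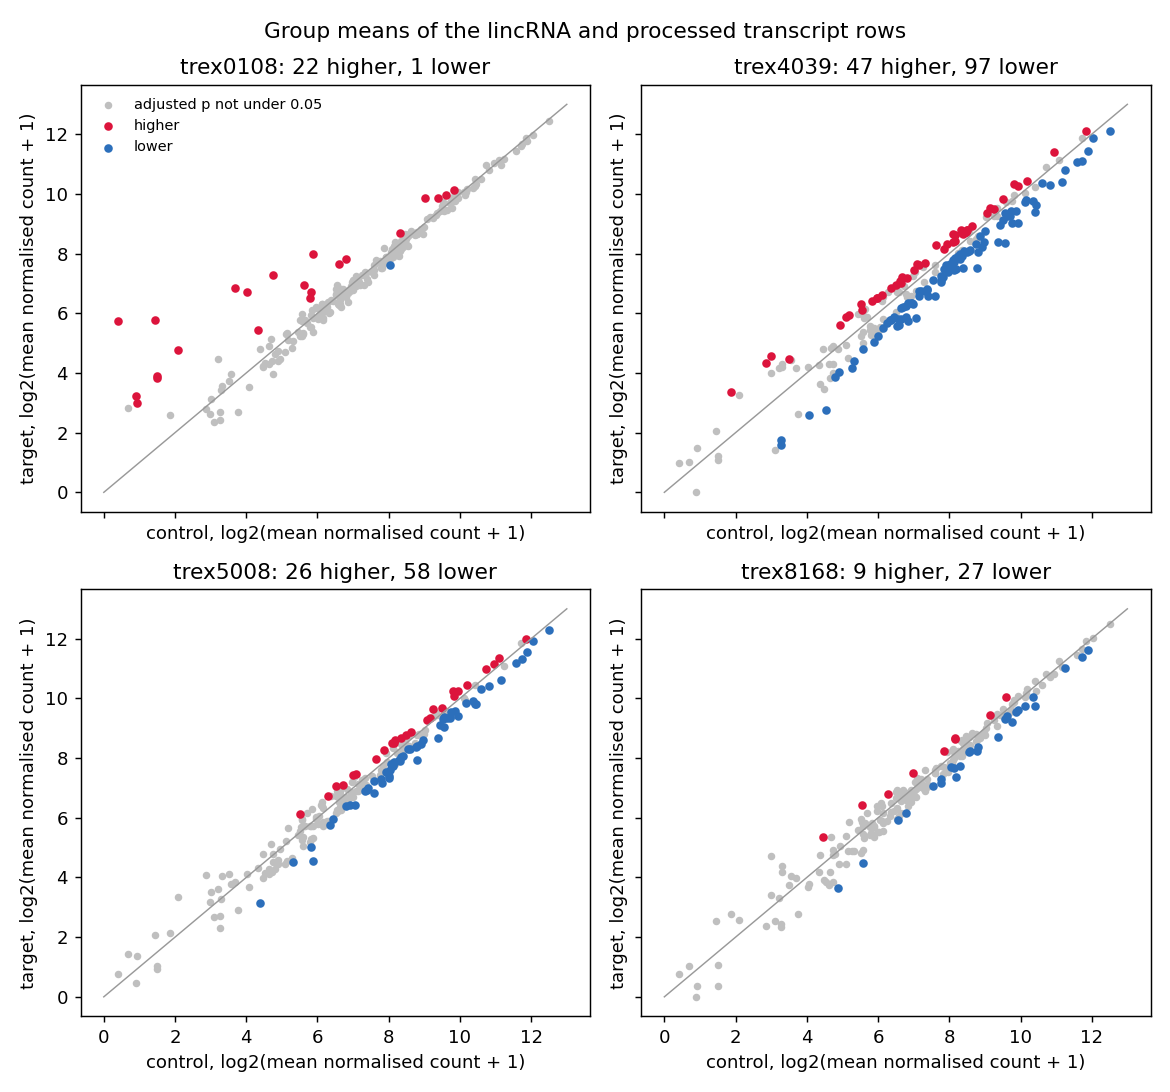
Mean normalised count of each of the 233 members in control (x axis) and in the target group (y axis), both as log2(mean + 1), with the diagonal marking equal means. Red and blue points had an authors' adjusted p under 0.05. In trex0108 the 22 red points lie mostly at low control means, while in trex4039 97 blue points run along the underside of the diagonal at all but the lowest levels.

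In trex4039, 63.2% of the members tested were called, beside 70.7% of all rows. By type, 79.5% of the processed transcripts (12 higher, 23 lower of 44) and 59.2% of the lincRNAs (35 higher, 74 lower of 184) were called. Their median mean normalised counts, not divided by length, were 372 and 110, and the part of this in the 2 shares was not tested. The antisense rows, which are no members, had 50 higher and 158 lower of 358 in trex4039, with a median of -0.25. A fall of more rows than rose was therefore not particular to the members.

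Names ending in AS, given to RNAs transcribed next to or across a coding gene from the other strand, had more rises than falls. Of 17 such members, 8 were higher and 4 lower in trex4039 (47.1% and 23.5%, beside 37.1% and 33.7% of all rows). In trex5008 6 were higher and 3 lower of the 15 tested, beside 29.8% and 24.3% of all rows. These few members lie near the shares of the whole table, and the grouping was made after the values were seen. Members that overlapped a coding row had 14 higher and 42 lower of 75 in trex4039 (18.7% and 56.0%), and the others 33 higher and 55 lower of 153 (21.6% and 35.9%). Members that RefSeq now types as protein-coding had 5 higher and 10 lower of 17 (29.4% and 58.8%). All these stand beside the same 37.1% and 33.7% of all rows.

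The locus listed as hsa-mir-125a (chromosome 19, 52185937 to 52196681, hg19) had a mean of 58.1 in control and 250 in trex0108 in the authors' deposited table. The deposited log2 fold change was 1.64 (authors' adjusted p 4.1e-35). Its mean was 40.7 in trex4039, 22.4 in trex5008 and 51.8 in trex8168, and the fall in trex5008 was called (-0.72, adjusted p 3.6e-06). It was thus the highest in trex0108 and the lowest in trex5008. miR-125a, whose seed is CCCUGAG, is the vertebrate relative of lin-4, a developmental timing microRNA of the worm.

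LINC00085 (chromosome 19, 52191684 to 52220722) overlapped that locus and was the only member called in all 4 comparisons. Its mean was 664 in control and 936 in trex0108, but 334 in trex4039, 409 in trex5008 and 415 in trex8168. The deposited log2 fold changes were 0.47, -0.91, -0.65 and -0.62 in that order. RefSeq now names it SPACA6, a coding gene known from sperm and egg fusion. HAS1 and another row beside it also rose in trex0108. HAS1, an enzyme that makes hyaluronan, went from 0.905 to 9.88 (0.33, adjusted p 9.2e-04), and CATG00000039745.1, a row of no annotated type, from 1.48 to 8.78 (0.28, adjusted p 0.0071). Since the table gives no strand, reads from overlapping loci cannot be told apart here. No member was called in the same direction in all 4 comparisons.

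RP11-30K9.6 (chromosome 15, 59057571 to 59063221) rose from 25.7 to 156 in trex0108 (1.72, adjusted p 2.4e-33). In trex4039, trex5008 and trex8168 its means were 28.8, 26.3 and 29.5, close to control. A row of no annotated type that overlaps it, XLOC_020839, rose from 908 to 1722 (0.84). ADAM10, the coding row nearest to RP11-30K9.6 at 15.3 kb, was not called in trex0108 (0.11, authors' adjusted p 0.63). XLOC_052396 (chromosome 5), 49.2 kb from ARRDC3, rose from 12.0 to 113 (1.76), and no other group exceeded 17.1. It had the largest deposited log2 fold change of the risen members.

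RP11-85G21.3 rose from 15.3 to 105 in trex0108 (1.59), while the other 3 target groups lay between 11.7 and 17.4. CTC-529P8.1 had a mean of 0.327 in control and 51.9 in trex0108 (1.46), with no more than 0.986 elsewhere. It overlaps XLOC_053027, which rose from 8.60 to 63.6 (1.27). RP11-521D12.5 went from 1.71 to 54.0, yet its deposited log2 fold change was only 0.51. The deposited size was at or under that of the ratio of means in all 287 called values of the members. Which of these measures is nearer the true change was not tested.

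RP11-196G18.24 (chromosome 1, 149817222 to 149818053) lies in a cluster of replication histone genes. Its mean was 95.7 in control, 201 in trex0108, and 99.9 to 108 in the other groups (0.85, adjusted p 4.1e-11). HIST2H4A, a histone H4 gene 5302 bp away, went from 164 to 454 (1.27), HIST2H4B from 1234 to 2769 (1.10), and the pseudogene HIST2H2BD from 156 to 339 (0.87). HIST2H4A and HIST2H4B are near-identical copies, so their split of reads is uncertain. The row and these named histone neighbours thus rose together in trex0108. XLOC_004882, a row of no annotated type that overlaps RP11-196G18.24, rose as well (0.42), and reads of overlapping rows cannot be told apart here. CATG00000017348.1, 14786 bp away, was not called (0.42, authors' adjusted p 0.057). XLOC_001781, a coding row 40156 bp away, was not called either (-0.02).

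AL162759.1 (chromosome 14) went from 3.24 to 26.1 in trex0108 (0.65, adjusted p 2.6e-06). Its nearest coding row, 53.1 kb away, is BMP4, a signalling ligand of early development, which rose from 619 to 1746 (1.39). CTB-118N6.2 rose from 48.0 to 122 (0.94), and the pseudogene CTB-118N6.1, 89 bp from it, from 3.56 to 23.1 (0.65). Rows of no annotated type that overlap these members were not called in trex0108, with log2 fold changes of -0.01 for XLOC_018467 at AL162759.1 and 0.0005 for XLOC_052631 at CTB-118N6.2. AC099552.3 rose from 110 to 225 (0.83) beside the overlapping coding row AC099552.4 (0.33).

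SPON1 (chromosome 11), typed as a processed transcript in the table but as the coding gene of the matrix protein spondin 1 in RefSeq, rose from 519 to 940 (0.78, adjusted p 2e-18). Its means were 594.5, 495 and 512 in trex4039, trex5008 and trex8168. MAGI2-AS3 rose from 904 to 1118 in trex0108 (0.29), to 1278 in trex4039 (0.47) and to 1084 in trex5008 (0.25), and its mean of 986 in trex8168 was not called (0.12). BAIAP2-AS1 was higher in trex0108 (775 to 994, 0.34) and in trex8168 (1057, 0.42), with 851 and 757 in the other groups. BAIAP2, a coding gene of the actin cytoskeleton 258 bp away, was called in no comparison, with log2 fold changes from -0.17 to 0.02.

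Some of the trex0108 rises were in rows with means near 0 in the other groups. LINC01070 went from 0.863 to 8.47 and was listed at 0 in trex4039 and trex8168. RP11-269G24.6 went from 1.84 to 13.4, and AC104653.1 and RP1-90K10.4 also started from control means under 2. The only member lower in trex0108, RP4-665J23.1, went from 262 to 196.5 (-0.35, adjusted p 0.025) and was also called in trex4039 (202, -0.32). ZNF644, the coding row it overlaps, rose in trex4039 (0.45).

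**Figure D2:**
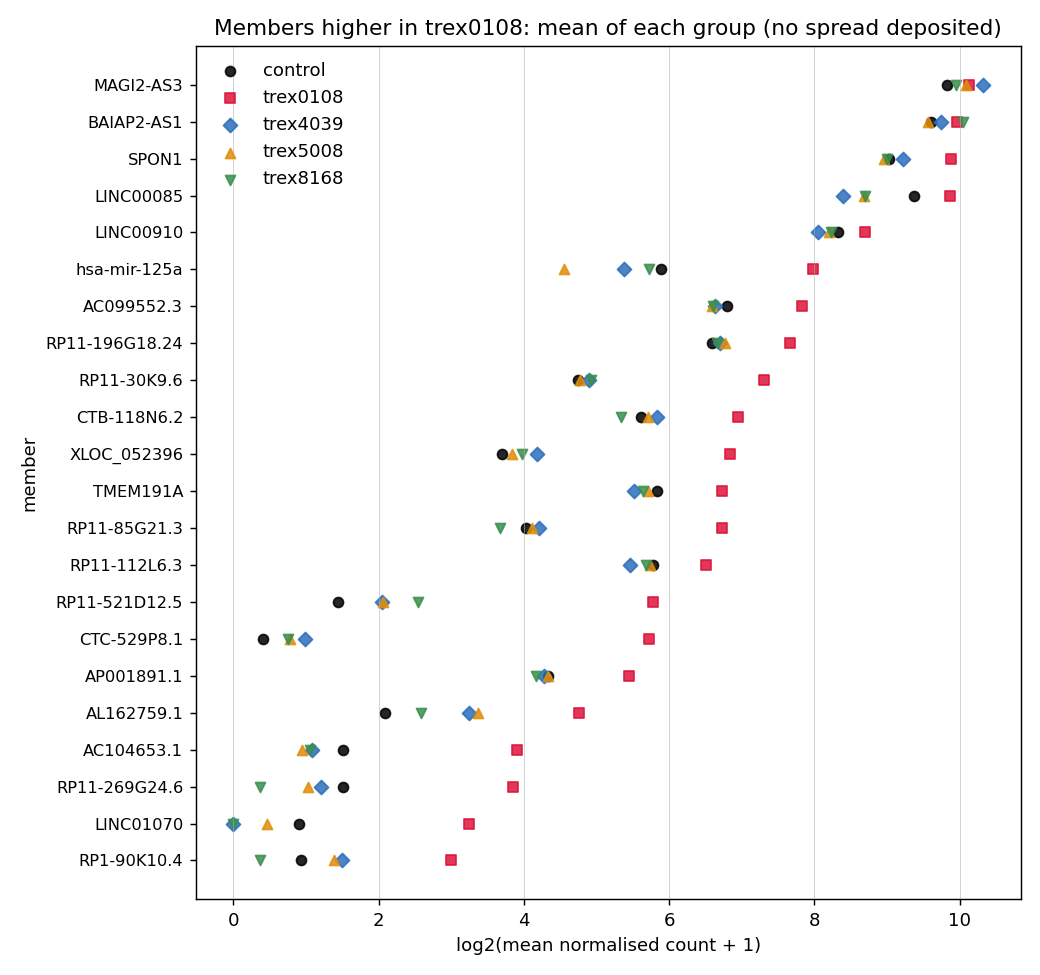
The 22 members higher in trex0108, 1 line each, with the mean normalised count of each of the 5 groups as log2(mean + 1) on the x axis, without a spread. The 22 were chosen for being called higher in trex0108, so its place to the right of control follows from that choice. The red squares of trex0108 stand to the right of all other groups for every member but MAGI2-AS3, where trex4039 was higher, and BAIAP2-AS1, where trex8168 was.

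In trex4039 the largest falls were those of SSPO (442 to 184, -1.07) and XLOC_064106 (756 to 325, -1.04). SSPO, a transcribed pseudogene related to the secreted matrix protein SCO-spondin, was also lower in trex5008 (244, -0.73) and in trex8168 (298, -0.50), and stood at 417.5 in trex0108. XLOC_064106 was lower in trex5008 as well (523, -0.46), but not called in trex8168 (693). LINC00085, given above, came next.

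RP11-181G12.4 fell from 132.2 to 56.9 in trex4039 (-0.82) and to 85.8 in trex5008 (-0.45). FAM157C fell from 975 to 522 (-0.81) in trex4039, to 673 in trex5008 (-0.49) and to 780 in trex8168 (-0.29). Its relatives FAM157A (278 to 175, -0.54) and FAM157B (94.1 to 54.9, -0.52) fell in trex4039 too. In trex8168 they fell to 201 (-0.38) and 60.1 (-0.43). In trex5008, FAM157A was lower (214, -0.31) and FAM157B was not called (73.3, -0.26). The 3 loci are similar copies near chromosome ends, so how reads were shared among them is uncertain.

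The largest rises in trex4039 stayed under 0.56 in deposited log2 fold change. RP11-81N13.1 went from 198 to 314 (0.55), RN7SL832P, a pseudogene of the 7SL signal recognition RNA, from 44.7 to 78.5 (0.51), and MKLN1-AS2 from 273 to 406 (0.51). MAGI2-AS3 was among these 5, and WDFY3-AS2 went from 135 to 199.5 (0.45). RN7SL832P, MKLN1-AS2 and WDFY3-AS2 were also higher in trex5008, by 0.39, 0.35 and 0.29.

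In trex5008 the lowest after SSPO, the hsa-mir-125a locus and LINC00085 were LINC00959 (258 to 160, -0.59), now named C10orf143, and RP11-54O7.3 (1396 to 901, -0.59). The largest rises were RP11-773D16.1 (90.3 to 134, 0.42), RN7SL832P, RP11-14N7.2 (900.5 to 1207, 0.38), RP11-620J15.3 (287 to 392.2, 0.37) and AC093627.9 (232 to 307, 0.36). RP11-14N7.2 was called in trex5008 alone.

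In trex8168 the falls were led by LINC00085, RP11-282I1.1 (289 to 163, -0.60), LL22NC03-2H8.5 (1362 to 862, -0.51), SSPO and XLOC_068738 (871 to 596, -0.47). Among the largest rises were RP11-568N6.1 (46.3 to 84.1, 0.54), BAIAP2-AS1, RP11-725P16.2 (124 to 179, 0.42) and RP11-620J15.3 (406, 0.41).

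**Figure D3:**
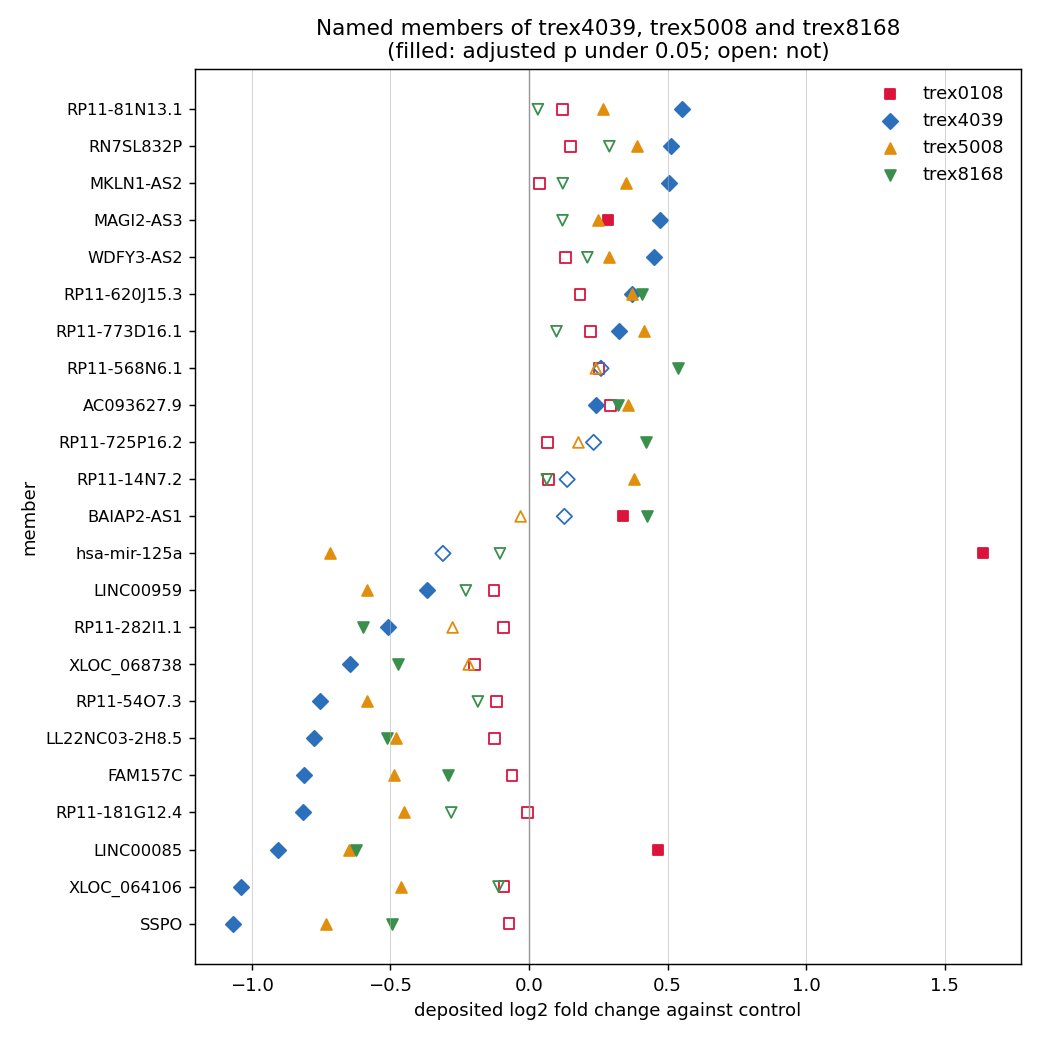
Deposited log2 fold change against control (x axis) of members among the largest called rises and falls in trex4039, trex5008 and trex8168, 1 line each, with filled symbols for an authors' adjusted p under 0.05 and open symbols otherwise. SSPO and XLOC_064106 lie furthest left in trex4039 at -1.07 and -1.04, and the hsa-mir-125a locus spans from -0.72 in trex5008 to 1.64 in trex0108.

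The 10 largest means included SNHG5, which carries small nucleolar RNAs in its introns. Its means were 2176 in control, 2246 in trex0108, 2258 in trex4039, 2600 in trex5008 and 2412 in trex8168, and the rise in trex5008 was called (0.24, adjusted p 0.0015). Of 24 snoRNA host symbols, SNHG14 was the other listed member, at 2.66 in control and 9.21 in trex4039 (0.25, adjusted p 0.034). UHRF1 fell from 5815 to 4409 in trex4039 (-0.39) and to 5002 in trex5008 (-0.21). CROCCP2, a pseudogene, fell in trex4039 (3790 to 2740), trex5008 (3028) and trex8168 (3129), and RP11-384K6.6 likewise from 3410 to 2220, 2533 and 2650. RP11-504P24.8 fell in trex4039 (2419 to 1767) and in trex8168 (2084).

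Of the other 5, JRK fell from 3049 to 2128 in trex4039 and 2344 in trex5008, and AL589743.1 from 4221 to 3746 and 3840. SEC22B rose from 3681 to 4411 in trex4039 and 4073 in trex5008, and ZNF518A from 1975 to 2709 and 2289. CASP8AP2, at 3377 in control, was called in no comparison, with 3145 in trex0108 and 3781 in trex4039.

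Of 9 members picked by name as holding or hosting a microRNA, 5 were lower and 0 higher in trex4039 by the authors' adjusted p. In trex5008, 2 of the 9 were higher and 3 lower. Of these 9, the hsa-mir-125a locus alone was called in trex0108, and none in trex8168. The 9 were not found by a search of all members. LINC00085, which overlaps the hsa-mir-125a locus and was called in all 4 comparisons, is not among them. This grouping was made after the values were seen. Over all rows, 33.7% were lower and 37.1% higher in trex4039, and 24.3% lower and 29.8% higher in trex5008. In trex0108 5.89% of all rows were called, and in trex8168 21.0%. MIR17HG, host of the miR-17-92 cluster that promotes proliferation, had means of 1694 in control, 2007 in trex0108, 1902 in trex4039, 2018 in trex5008 and 1818 in trex8168. Only the difference in trex5008 was called (0.23, adjusted p 0.0086).

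MIR210HG, host of a microRNA induced by low oxygen, went from 114 in control to 52.5 in trex4039 (-0.63, adjusted p 5.8e-05). Its means of 82.8, 84.3 and 82.7 in trex0108, trex5008 and trex8168 were all under control but not called. MIR940 fell from 170 to 95.1 in trex4039 (-0.63) and to 128 in trex5008 (-0.32). MIR24-2 fell from 85.8 to 57.4 (-0.37) and to 60.5 (-0.33) in the same groups. C1orf132 fell from 246 to 166 in trex4039 (-0.42), with 235 in trex5008.

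LINC00461, a brain-expressed host of miR-9 (now MIR9-2HG), rose from 104 to 137 in trex5008 (0.31, adjusted p 0.034) and had 111, 120 and 115 in trex0108, trex4039 and trex8168. LINC00599, a host of the neuronal miR-124, went the other way, from 63.3 to 36.4 in trex4039 (-0.44). LINC00461 was the only listed member of 8 neural symbols. None of the 7 imprinted and HOX symbols was listed as a member, nor any of the 8 symbols for nuclear architecture. TUG1 and HOTAIR were listed under antisense.

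The nearest listed protein-coding row was compared with each member. The median gap between spans was 19.1 kb, with 104 members within 10 kb and 164 within 100 kb. For the coding rows and their own nearest coding row the median gap was 5.67 kb. Only listed rows were searched, so a closer gene outside the table would be missed.

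In trex4039 both rows were called in 99 pairs, and 63 of them, 63.6%, moved the same way. Among coding rows and their nearest other coding row the share was 82.9% of 4081 pairs. Here and below, coding pairs were taken from each coding row, so rows nearest to each other entered more than once. In the 99 pairs, 63 members were lower and 36 higher, while 58 coding rows were higher and 41 lower. The 36 opposite pairs were made up of 29 in which the member fell and the coding row rose, and 7 of the reverse. Where spans overlapped, 28 of 40 pairs moved the same way, beside 83.6% of 1596 coding pairs. Beyond 100 kb it was 11 of 22, beside 80.2% of 768 coding pairs.

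In trex5008 both were called in 40 pairs, of which 31 moved the same way (77.5%, beside 83.7% of 2418 coding pairs). There, 15 of 18 overlapping pairs moved the same way, beside 85.9% of 1012 coding pairs. Beyond 100 kb it was 6 of 6, beside 75.7% of 354 coding pairs. In trex0108 both were called in 5 pairs, and all 5 rose together, beside 42 of 45 coding pairs. For the other 18 members called in trex0108, the nearest coding row was not called. In trex8168 both were called in 2 pairs, with 1 the same way, beside 250 of 366 coding pairs. Across the 233 pairs within a comparison, Spearman's rho between the 2 log2 fold changes was 0.33 in trex4039 and 0.38 in trex5008. It was 0.13 in trex0108 and 0.13 in trex8168. Across all coding pairs rho was 0.52 in trex4039, 0.46 in trex5008, 0.16 in trex0108 and 0.08 in trex8168. These describe pairs in shared libraries, with some coding rows used by more than 1 member, and carry no test.

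RP3-395M20.12 (chromosome 1, 2461274 to 2484215) overlaps HES5, a Notch target that keeps neural progenitors undifferentiated. It fell from 191.5 to 94.3 in trex4039 (-0.74) and to 112 in trex5008 (-0.58), and had 153 in trex0108 and 180 in trex8168. HES5 fell from 246 to 107 (-0.96) and to 133 (-0.72) in the same groups. The fall was not confined to HES5. PANK4, a coding row 3209 bp from RP3-395M20.12, was lower in both (-0.36 and -0.25), and PLCH2 in trex4039 alone (-0.42). Further away, MMEL1 and FAM213B were called in neither. RP11-54O7.3 overlaps SAMD11, and fell with it in trex4039 (-0.75 and -0.32) and trex5008 (-0.59 and -0.25). SLC2A1-AS1 fell from 325 to 241 in trex4039 (-0.37) with SLC2A1, the glucose transporter GLUT1 (-0.31).

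RP4-758J18.10 fell with XLOC_000036 in trex4039 (-0.33 and -0.21), and MIR940 with XLOC_023748 in trex4039 (-0.63 and -0.19) and trex5008 (-0.32 and -0.17). RP11-620J15.3 rose with XRCC6BP1 in trex4039 (0.37 and 0.30) and in trex5008 (0.37 and 0.29). MKLN1-AS2 rose with MKLN1, an adaptor of a ubiquitin ligase, in trex4039 (0.51 and 0.30), and RN7SL832P with NOL10, 26 bp away (0.51 and 0.26). MIR210HG fell with C11orf35, 1782 bp away (-0.63 and -0.73).

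Other close pairs moved in opposite directions. SPTY2D1-AS1 fell from 444 to 264 in trex4039 (-0.64) and to 337 in trex5008 (-0.35), while SPTY2D1, a histone chaperone gene it overlaps, rose by 0.41 and 0.22. XLOC_001559 fell (-0.54) and XLOC_001539 rose (0.12) in trex4039. The 2 pairs with both rows called in trex8168 were further apart. CROCCP2 fell (-0.26) and NECAP2, 150 kb away, rose (0.16). RP11-1275H24.2 fell (-0.39) with a row listed as ACTB, 83.2 kb away (-0.43), whose mean of 26.0 is under the minimum of 50.

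RAB30-AS1, whose window shown above holds no GC box, lies 128 bp from RAB30, a Golgi GTPase gene. It fell from 936 to 688 in trex4039 (-0.41), to 755 in trex5008 (-0.29) and to 741 in trex8168 (-0.31). RAB30 rose in trex4039 (0.42) and trex5008 (0.23), was not called in trex8168 (-0.10), and rose in trex0108 (0.45), where RAB30-AS1 was not called (861, -0.11). RP11-486O12.2 fell and TMED2, 124 bp away, rose in trex4039 (-0.36 and 0.30). The pairs of MKLN1-AS2, RN7SL832P, MIR210HG, RAB30-AS1 and RP11-486O12.2 were chosen after their values were seen.

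**Figure D4:**
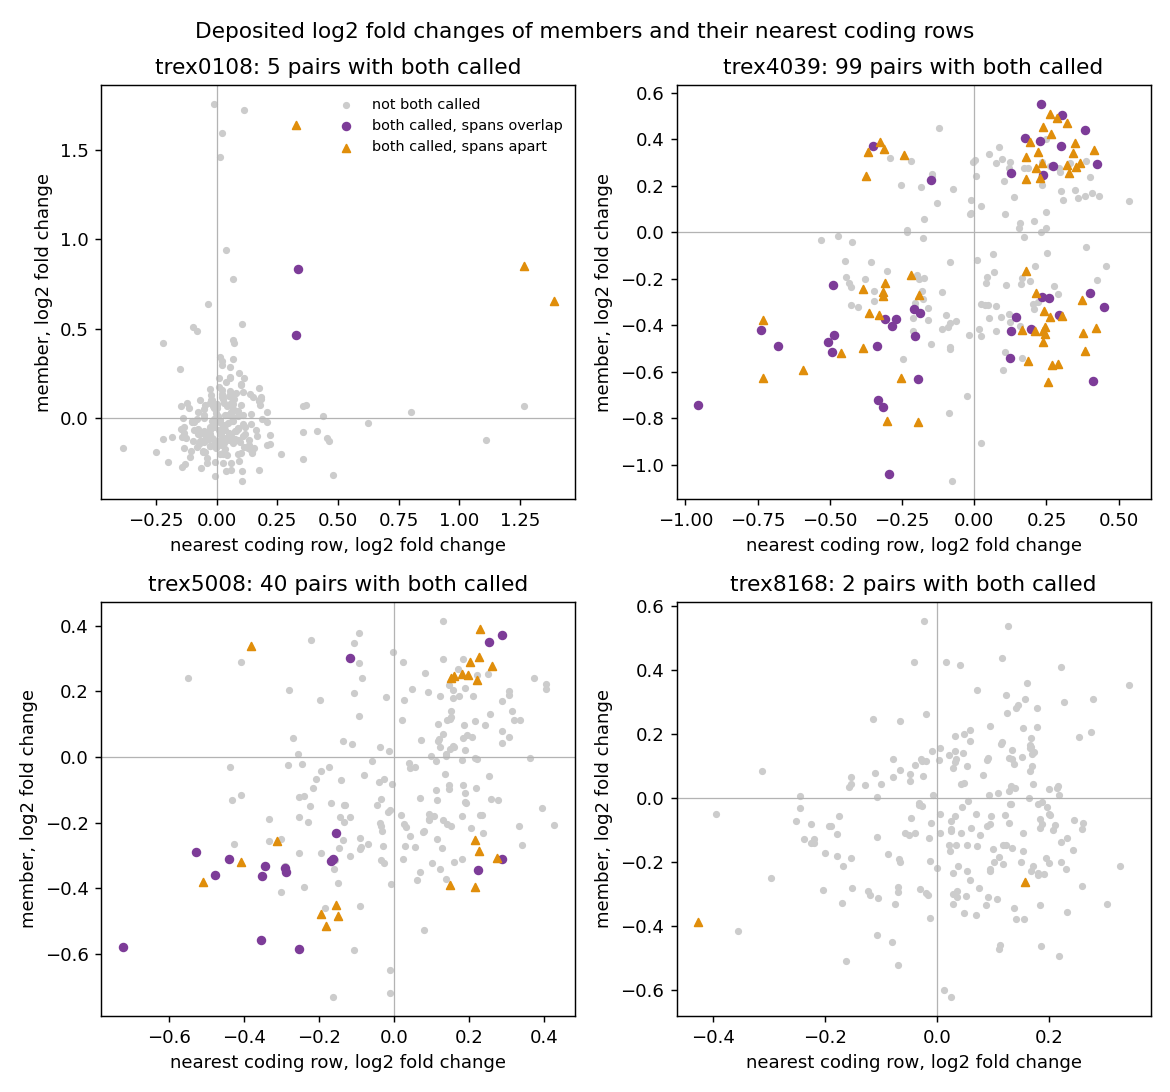
Deposited log2 fold change of each member (y axis) against that of its nearest listed coding row (x axis), 1 panel per comparison, with coloured points where both had an authors' adjusted p under 0.05. In trex4039 the 99 coloured points fill both same-direction corners and the lower right one, where 29 members fell beside a coding row that rose, and in trex0108 5 points lie in the upper right corner.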

How the data were processed

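PolyA RNA of 15 libraries was counted by the authors. The submitters' processing notes name the tools DESeq2 1.14.1, DESeq, STAR 2.5.1b, Bowtie2 2.2.1, Cufflinks and bedtools and the build hg19, without their roles. The kit preserves strand, per the labels, but whether the counting used it is not known here. Signal columns, as deposited, are the mean normalised counts that the authors computed for each group and for all libraries. The authors' log2 fold changes set a target group against control, and for the members called they were no larger in size than the log2 ratio of means (287 of 287 values). The p-value columns, as deposited, are adjusted. The authors' calls match an adjusted p below 0.1. Every listed row is called at that level in at least 1 comparison, so the shares printed for all rows are over listed rows only.

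Values per library were not used here, so no SD, depth or count model is given. Calls at an adjusted p under 0.05 were taken from the deposited values, and a missing p stayed missing. The edgeR test planned for counts per library could not be made. Nearest coding rows were found by the gap between spans, ties going to the larger overlap, in Python 3.11.15 with pandas 2.3.3. The search was tested on simulated spans. RefSeq (GRCh38.p14) gave names, types and sequences only, and 43 members matched a promoter.

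The members and lists were chosen with earlier results of these data known. Named members are, per comparison, the 5 highest and 5 lowest by log2 fold change among called rows with a mean of at least 50, and the 5 closest pairs with both rows called and both means at least 50. The 10 largest means, members called alike in all 4 comparisons and the fixed lists were added. Other names were chosen after their values were seen. A member that the rule names is not reported here, though it is in the counts.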

Additional observations from a re-analysis of the deposited data

How the results depend on the processing

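No paired analysis was possible because the table gives group means and no values per library. For the same reason leaving out single replicates could not be run. The planned GC correction was not run, since only 82 of 233 members (35.2%) matched a transcript of the reference by name, under the 80% needed. Of the alternatives for counts, medians and pairs, 61 gave like values and 30 moved. No median changed its sign, while counts have no sign to change. The share of trex8168 pairs that moved the same way went from 50% to 35.7% at an adjusted p under 0.1, which was counted as like. All 93 values of named members kept their sign as a log2 ratio of means. Counts fell by construction where fewer rows were kept. With a mean of at least 50, trex0108 had 12 members higher. With processed transcripts alone, the higher and lower counts were 4 and 0 in trex0108, 12 and 23 in trex4039, 11 and 18 in trex5008, and 1 and 10 in trex8168. With lincRNAs alone, trex5008 had 15 higher and trex8168 17 lower. Without overlap with a coding row, 0 were lower in trex0108, 55 in trex4039 and 30 in trex5008. At an adjusted p under 0.01, trex0108 had 0 lower, trex4039 26 higher, trex5008 13 higher and 37 lower, and trex8168 16 lower. Under 0.1, trex0108 had 2 lower, and trex8168 14 higher and 43 lower. Pairs with both rows called numbered 3 in trex0108, 52 in trex4039, 26 in trex5008 and 0 in trex8168 within 10 kb, and 1 in trex8168 within 100 kb. Without overlapping pairs they numbered 3 in trex0108, 59 in trex4039 and 22 in trex5008. No pair was left in trex8168 under 0.01. Leaving out the members that RefSeq types as protein-coding, added after seeing the data, moved no count by over 1.5 times.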
